A study of Mus musculus with 32 samples.

Results

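The endoplasmic reticulum (ER) chaperones described here are the 10 genes Hspa5, Hsp90b1, Pdia3, Pdia4, Pdia6, Calr, Xbp1, Herpud1, Dnajb9 and Sdf2l1, taken by gene symbol from the platform's probe table. Of these, 9 genes had a probe, 11 probes in all, out of 16593 genes and 25697 probes on the array. Sdf2l1 had no probe under its symbol and was not analysed here. Whole brains of 32 naïve male mice were hybridized to Illumina Mouse Ref8 v2 bead arrays, 1 animal per array. The 10 R8 animals are congenics that carry a short donor segment of distal chromosome 1 from strain D2 on the B6 background, and the 10 B6 animals are their background strain. The 6 R2 animals are the reverse case, D2 mice with a longer donor stretch from B6 there, and the 6 D2 animals are their background strain. Both congenics were made in the study's own colony, and each is a single line, so a group stands for that line. R8 minus B6 asks what the D2 segment does on B6, and R2 minus D2 asks what the B6 segment does on D2. The mean of R2 and D2 minus the mean of R8 and B6 compares the backgrounds with the allele of the R8 segment balanced. The stretch of chromosome 1 that only the longer R2 segment covers is not balanced in it.

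The ER folds membrane and secreted proteins. Hspa5 (BiP) is its Hsp70, Hsp90b1 (GRP94) its Hsp90, Dnajb9 (ERdj4) a J-domain partner of Hspa5, Calr (calreticulin) a lectin chaperone of glycoproteins that also buffers calcium, and Pdia3, Pdia4 and Pdia6 are thiol-disulfide isomerases that make and shuffle disulfide bonds. When unfolded protein builds up, the unfolded protein response raises many of these genes together: the sensor IRE1 splices the Xbp1 mRNA, and the transcription factors XBP1 and ATF6 act on ER stress response elements (ERSE) in their promoters. Herpud1, a membrane protein of ER-associated degradation, and Sdf2l1, a partner of Dnajb11 and Hspa5, belong to the same response. Neurons and glia depend on this machinery for receptors, channels and myelin proteins. None of the 10 genes lies on chromosome 1: Hspa5 and Pdia3 are on chromosome 2, Pdia4 on 6, Calr and Herpud1 on 8, Hsp90b1 on 10, Xbp1 on 11, Pdia6 and Dnajb9 on 12, and Sdf2l1 on 16, so no member sits in either donor segment.

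The promoters of Hspa5, Hsp90b1, Pdia6, Calr, Pdia4 and Dnajb9 are shown to set the shared element beside the measured patterns. Those of Pdia3, Herpud1, Xbp1 and Sdf2l1 were searched too and are not shown. RefSeq sequence of mouse build GRCm38.p6 was matched by symbol for 10 of 10 genes, and the 250 bases before each start are given 5′ to 3′ on the gene's strand. ERSE was searched as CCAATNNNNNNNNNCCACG on both strands, and capitals mark it, with its reverse complement reading CGTGG, 9 bases, ATTGG. Hspa5 is at chr2:34771840-34772089 on the plus strand, Hsp90b1 at chr10:86705445-86705694 on the minus strand, Pdia6 at chr12:17266339-17266588 on the plus strand, Calr at chr8:84846932-84847181 on the minus strand, Pdia4 at chr6:47813513-47813762 on the minus strand and Dnajb9 at chr12:44210069-44210318 on the minus strand. In Hspa5 the first capitals are TGACGTG, the core of the unfolded protein response element (UPRE), and in Pdia4 the capitals mark ERSE with any base allowed at its last position.
Hspa5: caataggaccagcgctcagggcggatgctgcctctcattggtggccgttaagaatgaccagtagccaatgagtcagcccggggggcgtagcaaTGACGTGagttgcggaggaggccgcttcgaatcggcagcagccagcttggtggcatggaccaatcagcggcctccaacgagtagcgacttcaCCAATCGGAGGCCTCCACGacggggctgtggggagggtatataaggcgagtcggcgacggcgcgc
Hsp90b1: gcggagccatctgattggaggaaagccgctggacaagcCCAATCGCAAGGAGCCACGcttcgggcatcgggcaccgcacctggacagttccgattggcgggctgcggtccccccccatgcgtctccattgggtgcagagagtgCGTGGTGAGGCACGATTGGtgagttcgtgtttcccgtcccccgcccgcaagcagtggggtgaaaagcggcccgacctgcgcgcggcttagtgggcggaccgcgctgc
Pdia6: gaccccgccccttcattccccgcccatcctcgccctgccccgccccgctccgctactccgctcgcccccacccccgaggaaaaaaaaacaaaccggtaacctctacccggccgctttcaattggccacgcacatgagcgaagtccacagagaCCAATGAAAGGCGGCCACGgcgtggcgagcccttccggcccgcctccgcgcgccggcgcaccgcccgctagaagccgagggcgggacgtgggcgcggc
Calr: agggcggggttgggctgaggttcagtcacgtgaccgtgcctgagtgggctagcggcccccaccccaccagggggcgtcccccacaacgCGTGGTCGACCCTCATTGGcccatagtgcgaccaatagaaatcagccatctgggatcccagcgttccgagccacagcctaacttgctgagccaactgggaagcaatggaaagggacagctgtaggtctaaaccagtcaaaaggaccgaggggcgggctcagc
Pdia4: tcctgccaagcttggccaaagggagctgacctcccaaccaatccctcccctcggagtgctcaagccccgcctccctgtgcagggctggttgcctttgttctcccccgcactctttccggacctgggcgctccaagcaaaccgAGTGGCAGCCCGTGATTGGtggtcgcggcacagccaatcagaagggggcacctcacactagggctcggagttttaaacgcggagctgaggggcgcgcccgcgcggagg
Dnajb9: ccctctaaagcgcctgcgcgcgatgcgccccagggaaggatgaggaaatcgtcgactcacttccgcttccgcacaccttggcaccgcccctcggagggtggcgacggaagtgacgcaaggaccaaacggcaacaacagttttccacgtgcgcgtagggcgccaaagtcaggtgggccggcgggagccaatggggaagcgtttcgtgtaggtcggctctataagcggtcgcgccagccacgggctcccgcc

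The exact ERSE was found in 4 of 10 member windows, Hspa5, Hsp90b1, Pdia6 and Calr, against 0.113% of 32851 promoter windows of the same length. Hsp90b1 held 2 copies, from -212 to -194 and from -107 to -89 relative to the start, while Hspa5 held 1 from -65 to -47, Pdia6 1 from -98 to -80 and Calr 1 from -162 to -144. With any base at the last position the count was 6 of 10, adding Pdia3 and Pdia4, against 0.314% of all windows. Herpud1 held the related ERSE-II, searched as ATTGG, any base, then CCACG, in the form ATTGGGCCACG from -52 to -42, an element present in 0.0304% of windows. Dnajb9, Xbp1 and Sdf2l1 held neither form of ERSE nor ERSE-II in this window, and TGACGTG was found in Hspa5 alone, against 1.65% of windows. ERSE and its looser form overlap by construction, and a match of letters is a description, not a measured binding site. Since ERSE is already known from promoters of this response, the counts are not an independent result about these genes.

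Levels are given as log2 normalized signal. Bead intensity was corrected for background with an offset of 16 added, then quantile-normalized over the 32 arrays and log2-transformed. A probe was detected on an array where its deposited detection p-value was under 0.01, and probes detected on at least 6 arrays were tested, 12351 in all. Each of the 9 genes had a probe detected on 32 of 32 arrays, and a gene with 2 probes is represented by the brighter one. Dnajb9's second probe was detected on 0 of 32 arrays and was not tested, and Herpud1's second probe is reported beside its first. Differences are limma contrasts with standard errors, and p-values were adjusted by Benjamini-Hochberg across those 12351 probes, with 0.05 as the threshold for a call. The methods state that RNA came from individual animals, so the spread includes differences between animals, and in whole brain fewer cells of a type and less RNA per cell cannot be told apart.

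Across the arrays, the median raw signal ranged from 380.2 to 578.5 and the number of probes detected from 10834 to 12283, and no array was left out. Markers of other cell types moved with the genetic background: summed microglial markers (6 of 7 tested) lay between 4062 and 5687 for R2 arrays and between 4512 and 5256 for D2 arrays, against 6709 to 8028 for R8 and 6962 to 8018 for B6 arrays, with 4 of the 6 called lower on the D2 background. Of the astrocyte markers, 3 of 6 were called higher there, and of the oligodendrocyte markers 3 of 5 were called lower, whereas 0 of 3 neuronal markers were called. In this contrast 28.0% of all probes were called, and the marker counts were not tested against that share. Summed pituitary hormone signal (Gh and Prl) ranged from 103 to 69710 over the arrays, and 0 of 3 plasma cell markers could be tested. The part of these shifts in the chaperone values was not tested.

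On the B6 background, no ER chaperone gene was called between R8 and B6. The count was 0 of 9 genes at an adjusted p under 0.05 by limma, where 0.0810% of all probes tested were called, and 0 of 9 at an unadjusted p under 0.05, where 4.13% were. Over the 9 genes the log2 differences ran from -0.04 for Hspa5 to 0.12 for Hsp90b1, with a median of 0.03 beside -0.002 for all probes.

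Hspa5, the Hsp70 that also binds the stress sensors of the ER, ran from 10.43 through a median of 10.93 to 11.16 in R8 brains, against 10.54, 10.96 and 11.16 in B6 brains. The ranges overlapped over nearly their whole width, and the difference was -0.04 ± 0.106 (SE, n = 10 each, adjusted p = 0.9996 by limma). Hspa5 also ran from 10.48 through 10.85 to 11.20 in R2 brains, against 10.53, 10.82 and 11.21 in D2 brains. Its difference there was 0.01 ± 0.136 (SE, n = 6 each, adjusted p = 0.975 by limma), so that the 4 strain means lay within 10.85 to 10.89. Hspa5 varied widely between animals of 1 strain: its SD within strains was 0.247, higher than that of 84.1% of the probes tested, whose median was 0.163.

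Hsp90b1, which folds client proteins such as Toll-like receptors and integrins, had a mean of 14.13 ± 0.149 in R8 brains and 14.01 ± 0.144 in B6 brains (SD, n = 10 each). R8 values ran from 13.97 through 14.07 to 14.35 and B6 values from 13.78 through 14.00 to 14.25, and the difference of 0.12 ± 0.0741 (SE) was not called (adjusted p = 0.9996 by limma). In R2 brains Hsp90b1 ran from 14.04 through 14.09 to 14.17, against 13.87, 14.18 and 14.66 in D2 brains, so that all 6 R2 values lay inside the D2 range. The highest of the D2 values, 14.66, came from D2 replicate 1.

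**Figure D1:**
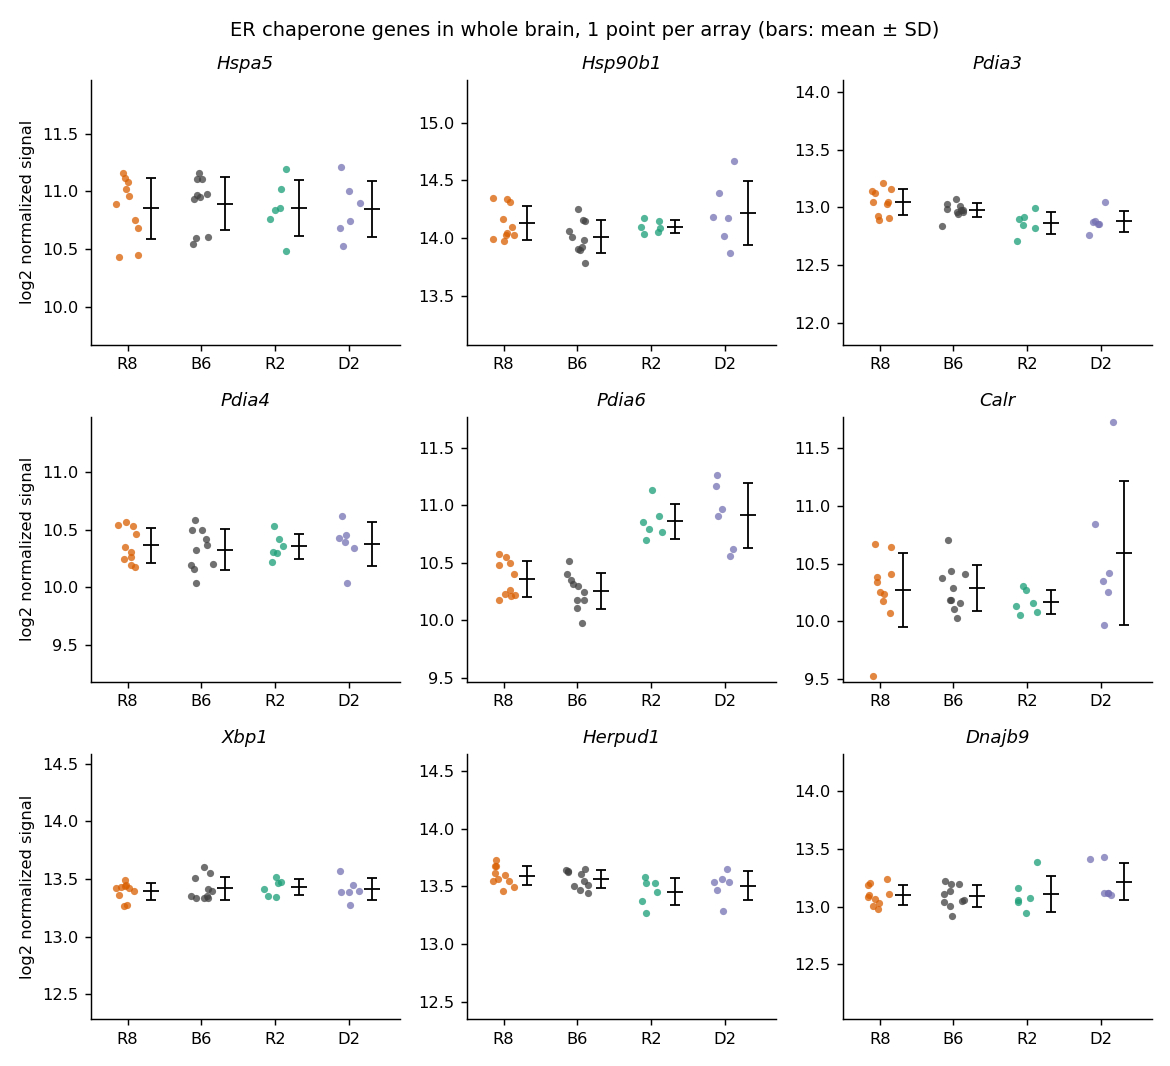
Log2 normalized signal of the 9 measured ER chaperone genes in R8, B6, R2 and D2 brains, 1 point per array, with the strain mean and SD as a bar beside the points; every panel spans the same width on the log2 axis. Pdia6 sits higher in R2 and D2 (10.55 to 11.26) than in R8 and B6 (9.97 to 10.57), and 1 D2 array stands high for Calr at 11.73.

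On the D2 background no ER chaperone gene was called between R2 and D2 either. By limma 0 of 9 genes passed between R2 and D2, where 0.494% of all probes were called, and 1 of 9, Calr, had an unadjusted p under 0.05, where 15.3% did. Calr ran from 10.05 through 10.15 to 10.30 in R2 brains, against 9.97, 10.39 and 11.73 in D2 brains, a difference of -0.43 ± 0.187 (SE, n = 6 each, adjusted p = 0.281 by limma). The 6 R2 values lay inside the D2 range, and D2 replicate 1 was 11.73 against 10.84 for the next D2 array. Without D2 replicate 1 the difference was -0.20 (adjusted p = 0.721 by limma).

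Calr was the most variable of the 9 genes, with an SD within strains of 0.343, higher than that of 97.7% of probes tested. In R8 brains it ran from 9.52 through 10.30 to 10.67, against 10.02, 10.24 and 10.70 in B6 brains, and the difference was -0.02 ± 0.145 (SE, adjusted p = 0.9996 by limma). The low R8 value, 9.52, belonged to replicate 9, and the next lowest R8 array had 10.07. At the other end, Xbp1, the transcription factor of the response, had an SD of 0.086, with 5.05% of probes lower, and Pdia3 one of 0.092, with 7% lower.

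The remaining genes gave differences that were not called in either congenic. Pdia4, whose strain means lay within 10.33 to 10.38, differed by 0.04 ± 0.0712 in R8 minus B6 and by -0.02 ± 0.0919 in R2 minus D2 (SE). Xbp1 had strain means within 13.39 to 13.43 and differed by -0.03 ± 0.0433 and 0.02 ± 0.0559 in these comparisons. The Xbp1 probe's place relative to the spliced intron was not known here, so spliced and unspliced mRNA were not told apart. Dnajb9 averaged 13.11 ± 0.152 in R2 and 13.22 ± 0.159 in D2 brains (SD, n = 6 each), a difference of -0.11 ± 0.0711 (SE, adjusted p = 0.471 by limma), and its R2 range of 12.94 to 13.39 overlapped the D2 range of 13.10 to 13.43. In R8 minus B6 Dnajb9 differed by 0.01 ± 0.0551 (SE).

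The effect of the D2 allele was also set side by side on both backgrounds, as D2 minus R2 less R8 minus B6. By limma 0 of 9 genes were called, against 0.113% of all probes, and 0 of 9 had an unadjusted p under 0.05, against 8.26%. The largest estimate was that of Calr, 0.44 ± 0.2365 (SE, adjusted p = 0.645), which was 0.22 without D2 replicate 1 (adjusted p = 0.982) and 0.22 with array weights (adjusted p = 0.883), and the other 8 genes lay between -0.06 and 0.10.

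Between the backgrounds, Pdia6 rose and Pdia3 fell. With 2 of 9 genes called by limma, 1 higher and 1 lower on the D2 background, the share stood beside 28.0% of all probes called in the same contrast, and the median absolute difference of the 9 genes, 0.0865, beside 0.0863 for all probes. As a share of the 9 genes the calls came to 22.2%, below the share over the whole array. The median signed difference was 0.02 for the 9 genes and 0.023 for all probes.

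Pdia6 (protein P5), an isomerase that acts on disulfide bonds and binds IRE1, ran from 10.70 through 10.83 to 11.13 in R2 brains and from 10.55 through 10.94 to 11.26 in D2 brains. In R8 brains it ran from 10.18 through 10.33 to 10.57, and in B6 brains from 9.97 through 10.27 to 10.51. Of the 12 D2-background arrays, 11 lay above the highest of the 20 B6-background arrays. The difference was 0.58 ± 0.0655 on the log2 scale (SE, 1.49-fold, n = 12 and 20, adjusted p = 7.02e-09 by limma).

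In order of mean, Pdia6 stood at 10.91 in D2, 10.86 in R2, 10.36 in R8 and 10.26 in B6. Of the neighbours in that order, R2 minus D2 was -0.05 ± 0.1036 (SE, adjusted p = 0.852) and R8 minus B6 was 0.11 ± 0.0802 (adjusted p = 0.9996), neither called, whereas R2 minus R8 was 0.50 ± 0.0926 (adjusted p = 8.44e-05 by limma). The parental pair alone gave D2 minus B6 of 0.66 ± 0.0926 (SE, adjusted p = 9.4e-07), where 20.4% of all probes were called. Within each block of 8 consecutive array numbers, the order number in the labels, the background difference of Pdia6 was 0.73, 0.50, 0.61 and 0.40, positive in 4 of 4. What this number stands for is not stated in the labels, so the blocks are not known to be batches.

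Pdia3 (ERp57), the isomerase that works with calreticulin and calnexin on glycoproteins, ran from 12.71 through 12.87 to 13.00 in R2 brains and from 12.76 through 12.87 to 13.05 in D2 brains. It ran from 12.89 through 13.05 to 13.21 in R8 brains and from 12.84 through 12.98 to 13.07 in B6 brains. The ranges overlapped, with 3 of 12 D2-background arrays below the lowest B6-background one. The difference was -0.14 ± 0.0369 (SE, 0.908-fold, adjusted p = 0.0039 by limma), negative in 4 of 4 blocks of array numbers, from -0.21 to -0.08. With arrays scaled to a common median in place of quantile normalization it was -0.11 with an adjusted p of 0.0733, and the call was lost.

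Herpud1 lay at the threshold. Its brighter probe averaged 13.46 ± 0.117 in R2 and 13.51 ± 0.124 in D2 brains (SD, n = 6 each), and 13.59 ± 0.0847 in R8 and 13.57 ± 0.0779 in B6 brains (SD, n = 10 each). The background difference was -0.10 ± 0.0384 (SE, adjusted p = 0.0564 by limma), just short of a call, and this probe was called under 4 of 9 other settings that kept it and when any of 8 arrays was left out singly. The second probe gave -0.15 ± 0.0394 (SE, adjusted p = 0.00373 by limma) and was called. With median scaling the second probe was at -0.12 with an adjusted p of 0.0593 by limma, and its call was lost. Within strains the probes followed each other loosely, with a Pearson r of 0.39 (permutation p = 0.026) and a Spearman rho of 0.29 (permutation p = 0.125) over 32 arrays.

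**Figure D2:**
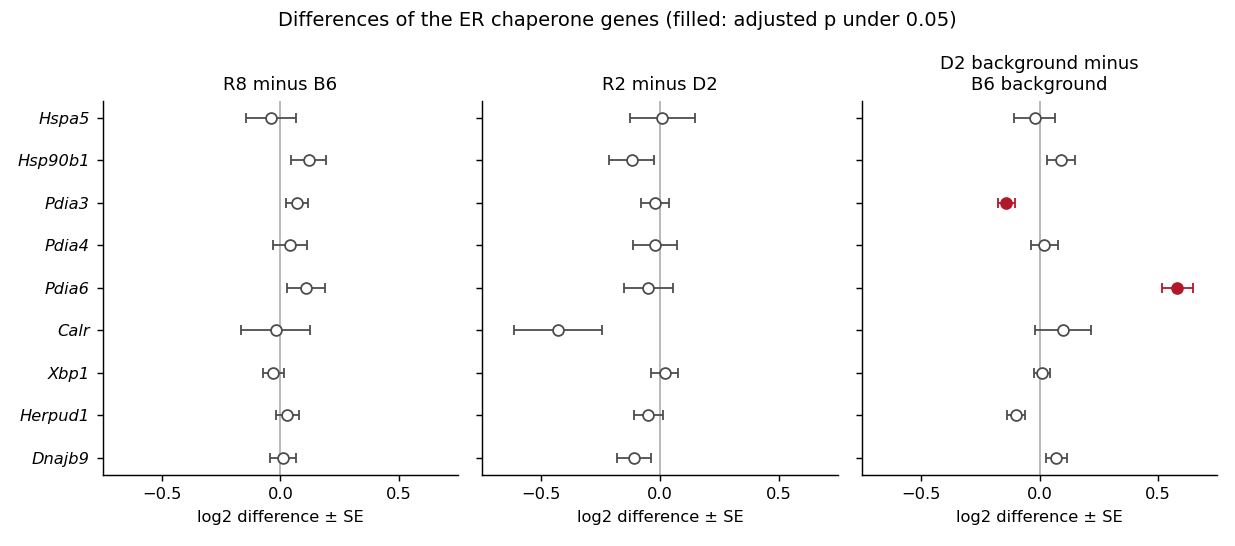
Log2 differences with standard errors for the 9 ER chaperone genes in R8 minus B6, R2 minus D2 and D2 background minus B6 background; filled points have an adjusted p under 0.05. Only Pdia6 (0.58) and Pdia3 (-0.14) are filled, both between the backgrounds, and Calr has the lowest estimate in R2 minus D2 at -0.43.

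The other 6 genes gave no call between the backgrounds, with differences of -0.02 for Hspa5, 0.09 for Hsp90b1, 0.02 for Pdia4, 0.10 for Calr, 0.01 for Xbp1 and 0.07 for Dnajb9. Each call in the group rests on 1 probe, and a base difference between the strains under a probe cannot be told apart from a difference in transcript level. The microglial, astrocytic and oligodendrocytic marker shifts given above run along the same contrast as the Pdia6 and Pdia3 calls.

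Genes around the members in the secretory pathway were counted by list, as a description. The limit above, a strain base difference under a probe, holds for these genes and for the lists that follow. Of 19 measured other ER folding factors, 2 were called higher and 3 lower on the D2 background by limma (26.3%, beside 28.0% of all probes). Hyou1, an ER nucleotide exchange factor of Hspa5, ran from 8.67 to 9.18 on the D2 background, against 7.62 to 8.55 on the B6 background, with a difference of 0.73 ± 0.0894 (SE, adjusted p = 3.8e-08). Dnajc10 (ERdj5), a reductase with a J domain, differed by 0.32 ± 0.0376 (adjusted p = 1.57e-08), and its ranges did not overlap either. Dnajc3 (p58IPK), a J-domain protein that restrains the kinase PERK, ran the other way, from 9.44 to 9.91 against 9.90 to 10.55, at -0.70 ± 0.0543 (adjusted p = 7.91e-13), and P4hb, the archetypal disulfide isomerase, differed by -0.12 ± 0.0359 (adjusted p = 0.0125).

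In ER-associated degradation, which returns misfolded protein to the cytosol for breakdown, 1 of 15 measured genes was called higher and 3 lower (26.7%, beside 28.0% of all probes). Derl2, a channel component, differed by 0.44 ± 0.0733 (SE, adjusted p = 1.04e-05 by limma), with 0.31 and 0.16 at its other probes, and Selenos, a selenoprotein partner of the derlins, by -0.62 ± 0.052 (adjusted p = 6.85e-12), with no overlap of the backgrounds and -0.40 at its other probe. The lectin Erlec1 differed by -0.36 ± 0.0603 (adjusted p = 1.15e-05), though its 2 other probes gave -0.34 and 0.20, and Sel1l, scaffold of the HRD1 ligase, by -0.19 ± 0.0615 (adjusted p = 0.0204). Calls in both directions stood side by side in this list.

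Of 9 measured sensors and signalling genes of the unfolded protein response, 1 was called higher and 1 lower (22.2%, beside 28.0% of all probes). Atf4, the transcription factor of the PERK branch, ran from 10.22 to 10.96 on the D2 background, against 11.93 to 12.44 on the B6 background, the largest difference of the lists at -1.59 ± 0.0578 (SE, adjusted p = 5.3e-22 by limma). Creb3, a transcription factor anchored in the ER membrane, differed by 0.18 ± 0.0385 (adjusted p = 0.000404). Ddit3 (CHOP), a target of ATF4, was at 0.19 ± 0.0815 (adjusted p = 0.0813) and Tmbim6 at -0.09 ± 0.0462 (adjusted p = 0.144), neither called.

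Of 26 measured genes of the translocon, signal peptidase and glycosylation, 4 were called higher and 3 lower (26.9%, beside 28.0% of all probes). Srpr, the receptor that docks ribosomes with a signal sequence at the ER, ran from 9.47 to 10.40 on the D2 background, against 10.98 to 11.57 on the B6 background, at -1.18 ± 0.0642 (SE, adjusted p = 5.27e-17 by limma), and Srp54a, of the signal recognition particle, was at -0.69 ± 0.078 (adjusted p = 5.75e-09). Sec61a2, a translocon channel subunit, was at 0.17 ± 0.0299 (adjusted p = 2.38e-05), and Rpn2, of the oligosaccharyltransferase, at 0.21 ± 0.0446 (adjusted p = 0.000392). Among 19 cytosolic and mitochondrial chaperones, 0 were called higher and 5 lower (26.3%, beside 28.0% of all probes): Hspb8 by -0.51 ± 0.0626, Hspa1a by -0.51 ± 0.0819, Hspa2 by -0.21 ± 0.0369 and Cryab by -0.27 ± 0.0698 (SE, adjusted p from 4.32e-08 to 0.00265) had the smallest p-values of them. In R8 minus B6, in R2 minus D2 and in the interaction, 0 genes of these 5 lists were called by limma.

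**Figure D3:**
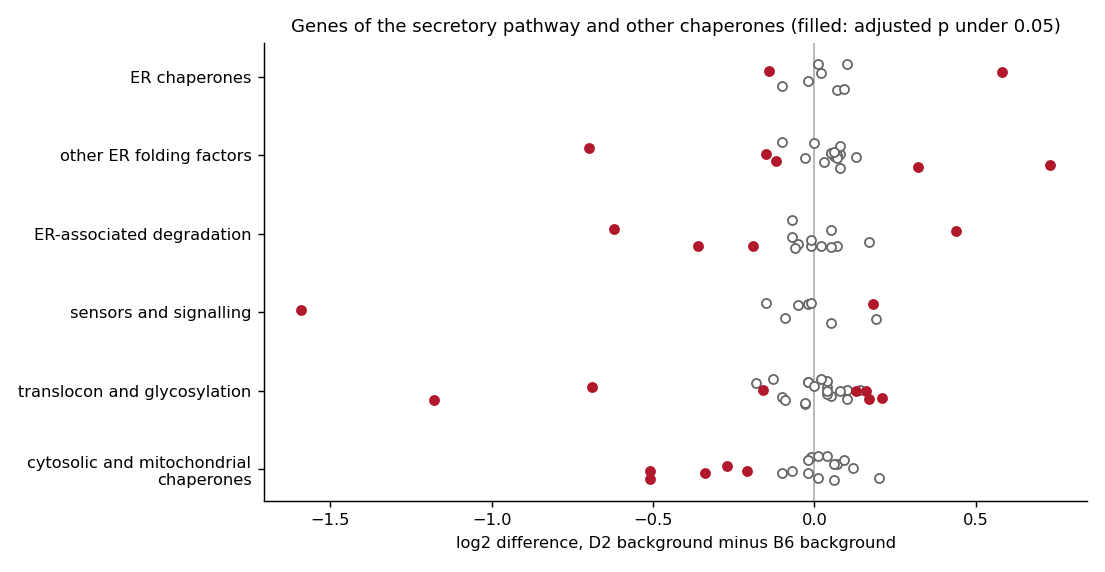
Log2 difference between the D2 and the B6 background for the measured genes of the ER chaperones and 5 further lists, 1 point per gene; filled points have an adjusted p under 0.05. Calls fall on both sides of 0 in the 5 lists of the secretory pathway, from Atf4 at -1.59 to Hyou1 at 0.73, and the 5 called of 19 cytosolic and mitochondrial chaperones (26.3%, beside 28.0% of all probes) lie below 0.

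Co-variation of the chaperones was then read within strains, each value taken minus its strain mean over the 32 arrays. Over the 36 pairs of the 9 genes the median Pearson r was 0.07, beside -0.001 over all pairs of probes tested, and 22 pairs were positive and 14 negative. An absolute r of at least 0.5 was reached by 6 pairs (16.7%), beside 4.24% of all pairs of probes. These 6 were the pairs of Hsp90b1, Pdia6, Dnajb9 and Pdia4 with each other, so they are not separate observations. By strain, the median over the 36 pairs was -0.14 in R8, -0.07 in B6, 0.26 in R2 and 0.30 in D2, and without D2 replicate 1 the median over all arrays was -0.06.

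Of the 36 pairs, 5 passed a two-sided permutation test within strains, with Benjamini-Hochberg adjustment over the 36. Hsp90b1, Pdia6 and Dnajb9 rose and fell together: r was 0.76 for Pdia6 with Dnajb9 (permutation p = 2e-05, adjusted p = 0.00072, rho = 0.72 with permutation p = 6e-05), 0.75 for Hsp90b1 with Pdia6 (permutation p = 6e-05, adjusted p = 0.00072, rho = 0.74 with permutation p = 3e-05) and 0.65 for Hsp90b1 with Dnajb9 (permutation p = 5e-05, adjusted p = 0.00072, rho = 0.63 with permutation p = 0.00028). Pdia4 ran against Pdia6 and Dnajb9, with r of -0.58 with Pdia6 (permutation p = 0.00104, adjusted p = 0.00886, rho = -0.55 with permutation p = 0.00165) and -0.55 with Dnajb9 (permutation p = 0.00123, adjusted p = 0.00886, rho = -0.53 with permutation p = 0.00285). Hsp90b1 with Pdia4 was at -0.51 and was not called by Pearson's r (permutation p = 0.00929, adjusted p = 0.0557), with rho of -0.52 (permutation p = 0.00541, adjusted p = 0.0325). With median scaling both Pdia4 calls by Pearson were lost, Pdia4 with Pdia6 at -0.41 (adjusted permutation p = 0.145) and Pdia4 with Dnajb9 at -0.31 (adjusted permutation p = 0.295). Without the 2 arrays farthest from the median of the first gene of each pair, r was 0.74, 0.70, 0.57, -0.50 and -0.44 in the same order. Pdia6 with Dnajb9 was positive in each strain, at 0.84 in R8, 0.60 in B6, 0.85 in R2 and 0.82 in D2.

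The pairs held less evenly by array number. In the third block of 8 consecutive numbers, after strain means within the block were removed, Hsp90b1 with Dnajb9 was at -0.94, Pdia6 with Dnajb9 at -0.25 and Pdia4 with Pdia6 at 0.56, against 0.92, 0.95 and -0.48 in the first block. Hsp90b1 with Dnajb9 was also negative in the fourth block, at -0.46, so it was positive in 2 of 4. Each block holds 8 arrays of up to 4 strains, so few degrees of freedom remain in it. With the means of the 4 blocks removed over all 32 arrays, the 5 pairs had r of 0.80, 0.74, 0.57, -0.54 and -0.48 in the order above, and all 5 were called, with Hspa5 and Pdia4 as a further called pair (r = -0.52, adjusted permutation p = 0.0287).

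**Figure D4:**
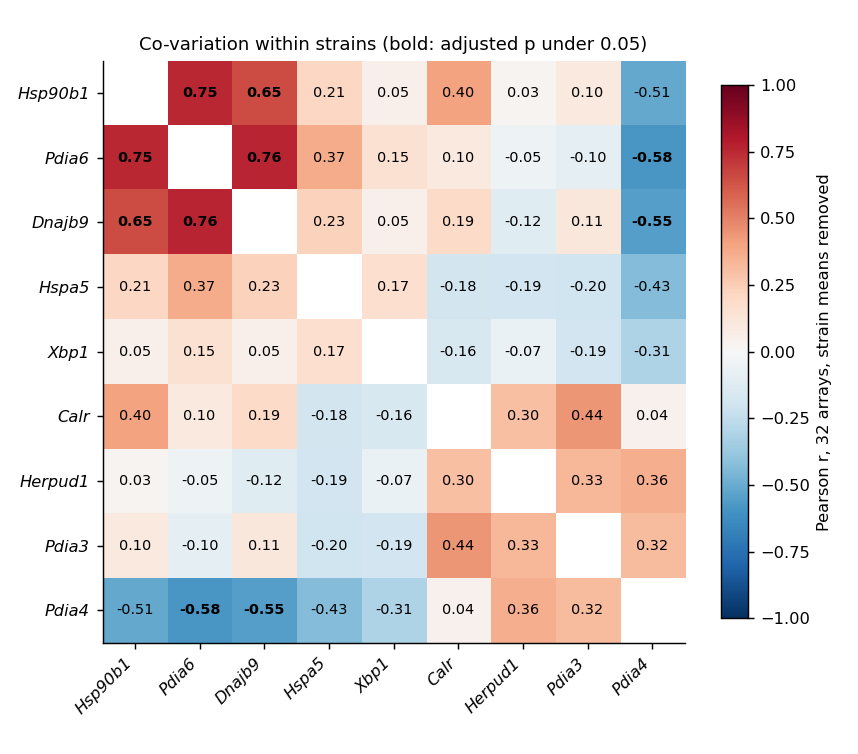
Pearson r for each pair of the 9 ER chaperone genes over 32 arrays after removing strain means, red positive and blue negative, with r printed in each cell and bold for an adjusted permutation p under 0.05. Hsp90b1, Pdia6 and Dnajb9 form a positive corner (0.65 to 0.76), Pdia4 is negative with Pdia6 (-0.58) and Dnajb9 (-0.55), and Hspa5 has no bold cell.

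Over all 32 arrays and with strain means alone removed, Hspa5 was in no called pair, though Hspa5 with Pdia4 was called with the array-number blocks as a term (above), without R8 replicate 1 (r = -0.49, adjusted permutation p = 0.0377) and without R8 replicate 6 (r = -0.49, adjusted permutation p = 0.0464). Its highest r among the members was 0.37, with Pdia6 (permutation p = 0.0447, adjusted p = 0.179, rho = 0.33 with permutation p = 0.0874), and its lowest -0.43, with Pdia4 (permutation p = 0.0184, adjusted p = 0.0946, rho = -0.39 with permutation p = 0.0395). Calr was in no called pair either, but Pdia3 with Calr was called without R8 replicate 10 (r = 0.52, adjusted permutation p = 0.0371). Among 8665 non-member genes, those most like Hspa5 across the 32 arrays, by r after removing strain means, were Spon1 (r = 0.80), Slc12a5 (0.79), Lims1 (0.78), Bmyc (0.76) and Pcna (0.76), and those most like the mean of the standardized members were Caprin1 (0.85), Hacd1 (0.84), Atg3 (0.82), Ptprr (0.79) and Usp33 (0.79).

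The correlated genes followed the main axis of variation of the whole array. The first component of all 12351 probes after strain means were removed held 14.6% of that variance. Its scores ran from -0.305 in D2 replicate 6 to 0.473 in D2 replicate 1. Over 27 relations of the 9 genes with this score and with 2 measures of array depth, r with the score was 0.87 for Hsp90b1 (rho = 0.79, permutation p = 1e-05 for both, the smallest that 100000 resamples can give), 0.80 for Pdia6 (rho = 0.77, permutation p = 2e-05 for both), 0.78 for Dnajb9 (rho = 0.72, permutation p = 1e-05 and 6e-05) and -0.62 for Pdia4 (rho = -0.63, permutation p = 0.00061 and 0.00033), with adjusted p of at most 0.00412. The other 5 genes lay between -0.02 and 0.37 and did not pass, and 0 of the 18 relations with the number of probes detected or the median signal passed.

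An absolute r of at least 0.6 with the score was reached by 4 of 9 genes, beside 13.9% of all probes, of which the members are a part. With the score removed by regression, a step chosen after seeing the data, 0 of 36 pairs were called: Pdia6 with Dnajb9 was at 0.37 (adjusted p = 0.342), Hsp90b1 with Pdia6 at 0.19 (adjusted p = 0.624) and Hsp90b1 with Dnajb9 at -0.10 (adjusted p = 0.779). Pdia4 was then at -0.18 with Pdia6 (adjusted p = 0.624) and -0.13 with Dnajb9 (adjusted p = 0.655). Of 5 marker lists, the microglial one moved with the score at r = -0.53 (permutation p = 0.00264, adjusted p = 0.0132, rho = -0.48 with permutation p = 0.0089), and what the score stands for was not tested.

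Genes that followed the score most closely, named after their values were seen, were Dld (0.94), Tax1bp1 (0.93) and Nap1l5 (0.91) on the positive side and Ica1 (-0.89), Lrrc49 (-0.88) and Vps28 (-0.88) on the negative side, out of 8674 genes. None of these is an ER chaperone. Between the members and the 5 marker lists, 1 of 45 relations passed, Herpud1 with the oligodendrocyte markers (r = 0.59, permutation p = 0.00089, adjusted p = 0.04, rho = 0.44 with permutation p = 0.0157).

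**Figure D5:**
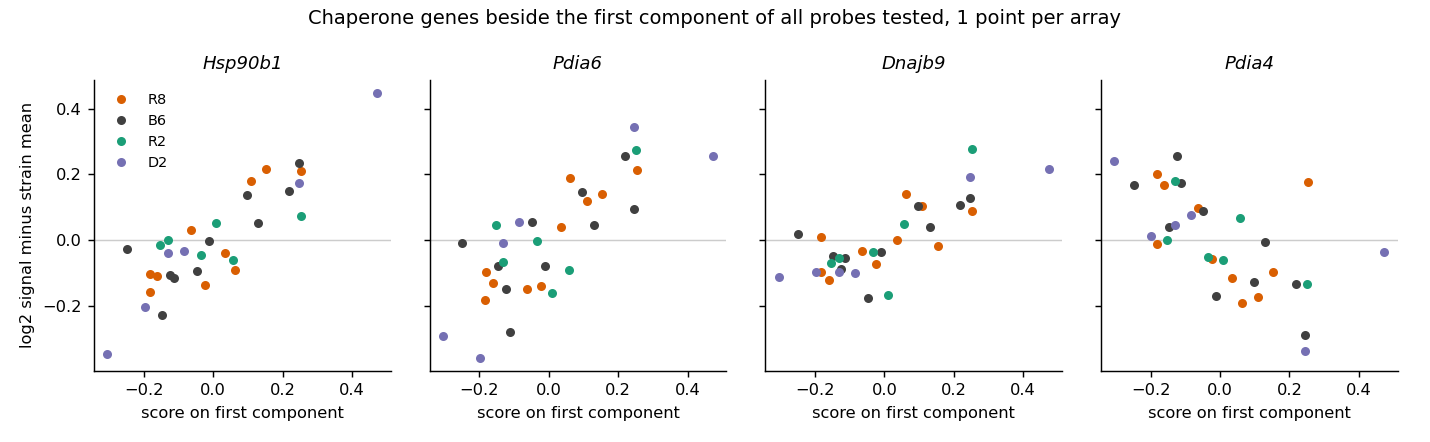
Log2 signal minus strain mean of Hsp90b1, Pdia6, Dnajb9 and Pdia4 against the array's score on the first component of all probes tested, 1 point per array, coloured by strain. The first 3 genes climb with the score (r = 0.87, 0.80 and 0.78), Pdia4 declines (r = -0.62), and D2 replicate 1 is the rightmost point at 0.473.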

How the data were processed

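The deposited table of non-normalized values gave, for each of 32 arrays and 25697 probes, the bead signal as intensity and a detection p-value, both as deposited by the authors. A second table held intensities the authors had normalized, used as an alternative. Array columns were matched to samples by name. With limma 3.58.1 in R 4.3.3, signals were background-corrected from negative controls inferred from the detection p-values, quantile-normalized and log2-transformed with an offset of 16 (neqc). Probes with a detection p-value under 0.01 on at least 6 arrays were kept, 12351 in all. A linear model with 4 strain means was fitted over all 32 arrays, since the groups then share one estimate of spread, and contrasts were adjusted by Benjamini-Hochberg over all probes kept. Genes are named from the platform's probe table (23978 probes with 1 symbol, 0 with several, 1719 with none). Each gene is represented by its probe of highest mean signal.

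Co-variation used values minus strain means, with 100000 permutations of one gene's values within strains (scipy 1.17.1, numpy 2.4.6). Scripts were tested on simulated data. Array precision is limited by their number. The members and the gene lists were chosen with earlier results of these data known. Genes named in the text are the 9 measured members, up to 4 genes of each further list with the smallest p between the backgrounds, and the 5 genes most like Hspa5 and the 5 most like the members' mean. Alternatives were median scaling, no background correction, the authors' normalized values, another offset, no or another filter, array-number blocks and a replicate block. Others were array weights, another probe rule, pairwise fits, a t-test on the authors' normalized values and leaving out each array. Same-numbered replicates were not treated as pairs, since not every such pair correlated above 0.1.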

Additional observations from a re-analysis of the deposited data

Results flagged for a closer look

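In R8 brains, Calr was lowest in replicate 9 at 9.52 on the log2 scale. The nearest of the other 9 R8 arrays had 10.07 and the R8 median was 10.30, so the gap took 0.47 of the group's whole range, just above Dixon's critical value for 10 arrays. This was 1 of 36 combinations of gene and strain examined, and chance marks about 1 in 20 such groups.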

How the results depend on the processing

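No ER chaperone gene was called in R8 minus B6, R2 minus D2 or the interaction under any setting run or with any array left out (0 to 0). Over all probes, R2 minus D2 called 61. It called 37 with no detection filter, 40 with array-number blocks and 18 with its arrays normalized and fitted alone. Leaving out 1 array gave 127 without D2 replicate 2 and 105 without D2 replicate 6, but 32 without D2 replicate 3, 33 without R2 replicate 5, 35 without R2 replicate 2 and 39 without D2 replicate 1. By a t-test on the authors' normalized values, R2 minus D2 called 11 probes after Benjamini-Hochberg. At the paper's threshold, an unadjusted p under 0.01, that t-test called 296. Between the backgrounds, limma called 2 genes, and 1 with median scaling, where Pdia3 was lost. The count was 2 to 3 with single arrays left out, the third gene being Herpud1. Pdia6 stayed called under 10 of 10 other settings, from 0.48 to 0.60. With a replicate block the counts were 0 in R8 minus B6, 0 in R2 minus D2, 3 between the backgrounds and 0 in the interaction. Replicate numbers correlated above 0.1 in 2 of 10 R8 and B6 pairs and in 4 of 6 R2 and D2 pairs, so not every pair did, and no pairing was assumed. Correlated pairs numbered 5, and 5 to 7 with single arrays left out. With the first component removed, 0 were called and Hsp90b1 with Dnajb9 was at -0.10, against 0.65. With median scaling 5 were called, 3 of them shared, with Pdia4 at -0.41 with Pdia6 and -0.31 with Dnajb9. The pairs gained were Pdia3 with Herpud1 (r = 0.55, adjusted permutation p = 0.0183) and Pdia4 with Herpud1 (r = 0.50, adjusted permutation p = 0.0388). The median r was -0.06 (without D2 replicate 1) to 0.14 with single arrays left out. The cause of these changes was not tested.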
